A study of Mus musculus with 16 samples.

Results

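Border-associated macrophages are the resident macrophages of the meninges, the perivascular spaces and the choroid plexus, and they are distinct from the microglia of the brain parenchyma. They are known for scavenger receptors and lectins that take up circulating and interstitial material, and in experimental autoimmune encephalomyelitis (EAE), a model of inflammatory demyelination, the borders they occupy are where blood leukocytes enter. Their genes were followed here in RNA described as coming from sorted microglia, in which such macrophages are not the labelled cell type. The set comprised 10 genes chosen by symbol, namely Mrc1, Cd163, Lyve1, Pf4, Ms4a7, Cbr2, Stab1, Folr2, Clec10a and F13a1. All 10 were found among the 21878 genes of the count and FPKM tables, and all 10 were among the 17885 genes that were tested.

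By the study's methods, the CD11b+/CD45int fraction of the brain was sorted from 16 animals, 8 with EAE and 8 treated with PBS. Each mouse gave 1 total RNA library. All mice were wild-type female C57BL/6 of 8 weeks. EAE mice received the MOG (35-55) peptide of myelin oligodendrocyte glycoprotein in complete Freund's adjuvant with 200 ng pertussis toxin per dose, and brains were taken at peak disease, while the control mice received PBS by the same schedule. The treatment field of the labels gives a last MOG residue that rises from 55 in EAE 1 to 62 in EAE 8, whereas the protocol gives 55 for all. Since the adjuvant and the toxin were given to EAE mice alone, their effects and that of the peptide cannot be told apart.

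Total counts per library were 24587443–30244215 for EAE and 26031889–34184576 for PBS. The label of microglia was compared with markers of other cells. The summed FPKM (fragments per kilobase, scaled to sequencing depth) of 12 homeostatic microglia genes was 94.8–182 across the libraries, with none of them at 0 in any library. The sums were 843–1099 for 8 neuron genes, 1105–1677 for 7 astrocyte genes and 906–1272 for 7 oligodendrocyte genes, so that the markers of these other brain cells summed to more than those of microglia in every library. EAE 6, EAE 7 and EAE 8 were the most alike of the EAE libraries, and PBS 5, PBS 7 and PBS 8 of the PBS libraries. The squared difference between libraries within these trios was 3.11–4.02 times counting noise, against 6.06–24.6 times for the other pairs of the same group. Between the trios it was 6.68–12.1 times, within the range of 5.38–26.7 times for the other EAE and PBS pairs, so the trios were not close to each other. Both trios are called the 6 alike libraries here. No label names a batch, and these 6 libraries were defined from the data, so values are also given within them and within the other 10. Since the 6 were picked as the most alike, SEs and p-values within them are biased low.

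None of the 10 genes passed the test for a difference between EAE mice and PBS-treated mice. In edgeR's quasi-likelihood test, 0 of 10 were called at a Benjamini-Hochberg adjusted p under 0.05 with a |log2FC| over 1, and 0.117% of all tested genes were called. Without the fold change threshold, 0 of 10 passed against 2.42% of all tested genes. This background depended on single libraries, with 118 higher and 315 lower genes in all libraries, 502 and 815 without EAE 4, 39 and 106 without EAE 2 and 40 and 104 without PBS 2, while 0 of 10 members passed in each of these fits. At an unadjusted p under 0.05, 0 of 10 passed against 17.4% of all tested genes. In this fit 7 members had a higher and 3 a lower estimate in EAE mice, and their median log2FC was 0.31, while 9417 of the 17885 genes tested had a higher estimate with a median of 0.009. Without EAE 4 the member median was 0.18, with estimates of 0.20 for Lyve1, 0.086 for Stab1 and 0.17 for F13a1. In the limma fit 0 of 10 members passed as well, and 0 passed in the DESeq2 fit, which gave no adjusted p for Ms4a7. For every member, the ranges of the EAE and PBS libraries overlapped, and the share of all tested genes with such overlap was not counted. In bulk RNA, fewer cells of a type and less RNA per cell cannot be told apart.

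**Figure D1:**
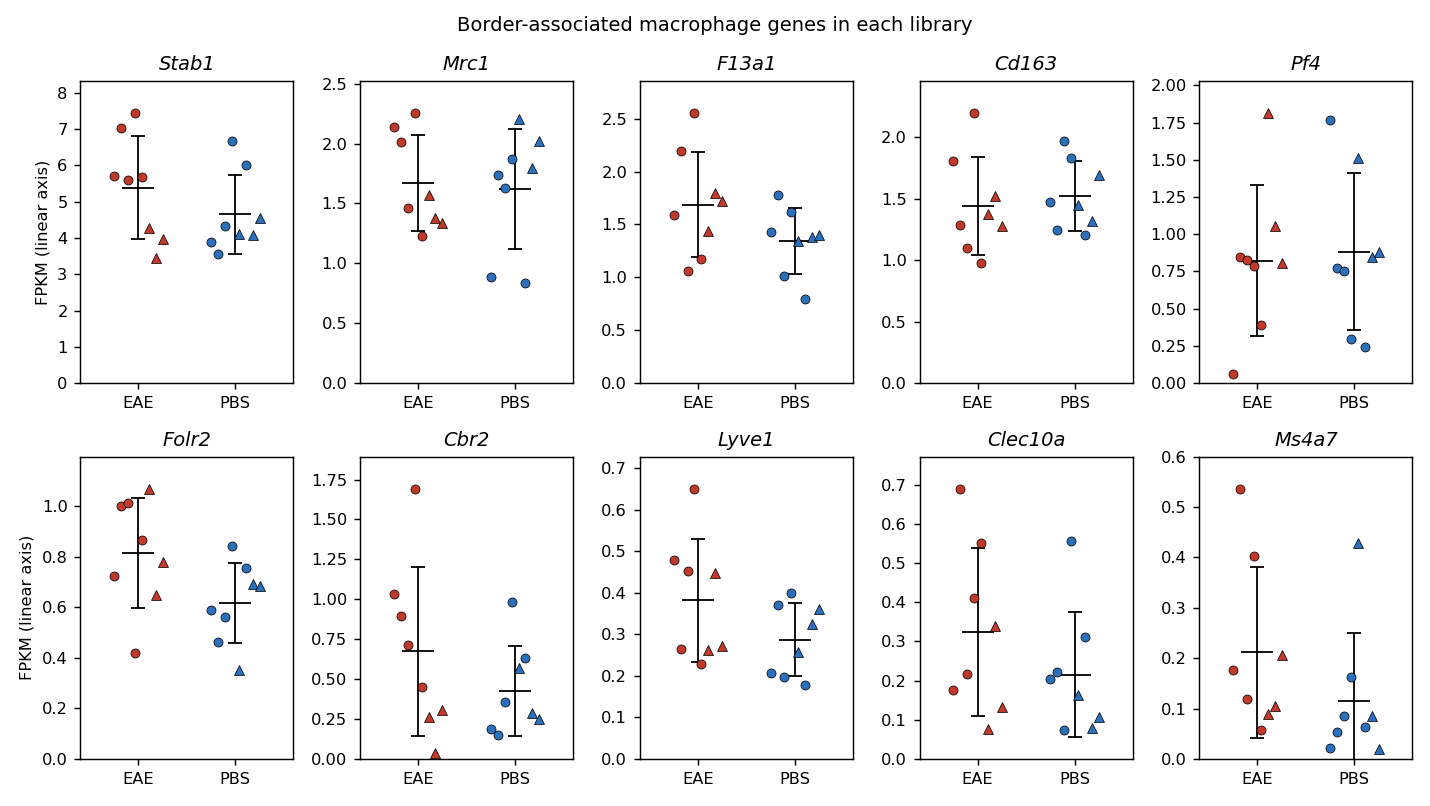
FPKM of each of the 10 genes (vertical axes, linear, from 0) in 8 EAE and 8 PBS libraries, with each point 1 library and horizontal lines with bars the mean ± SD. Triangles mark EAE 6, 7 and 8 and PBS 5, 7 and 8, and the groups overlap for all 10 genes.

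The levels of the set spanned from 5.02 FPKM for Stab1 to 0.163 FPKM for Ms4a7 as means over the 16 libraries. Stab1 was above Mrc1, the next gene, in 16 of 16 libraries. Mrc1 (1.65 FPKM), F13a1 (1.52 FPKM) and Cd163 (1.48 FPKM) were not separated, since Mrc1 was above F13a1 in 10 and F13a1 above Cd163 in 8 of 16 libraries. Cd163 was above Pf4 (0.853 FPKM) in 13 of 16 libraries. Below Pf4, the order was Folr2 (0.715 FPKM), Cbr2 (0.550 FPKM), Lyve1 (0.335 FPKM) and Clec10a (0.269 FPKM), and each of these neighbours, Ms4a7 included, was in the stated order in 10 to 12 of 16 libraries. FPKM is a level per length, which allows genes to be set side by side.

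The scavenger receptors were the best measured members. Mrc1, the mannose receptor, lies on chromosome 2 from 14229392 to 14332057 on the plus strand of GRCm38, with the miRNA gene Mir511 inside it. Its FPKM was 1.22 in EAE 5, 2.25 in EAE 4 and 1.52 at the median of EAE mice. In PBS-treated mice it was 0.837 in PBS 6, 2.20 in PBS 5 and 1.77 at the median. The PBS range extended below that of the EAE libraries and ended close to it at the top. The log2FC was −0.02 (SE 0.18, 95% interval −0.40 to 0.37, adjusted p = 0.977 in the edgeR test), which spans a fold of 0.759 to 1.29. The exact permutation test of the difference in mean FPKM over all divisions of the libraries, taken as two-sided, gave p = 0.832.

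Cd163, the receptor for haemoglobin bound to haptoglobin (chromosome 6, 124304656 to 124330527, plus strand), ranged from 0.974 FPKM in EAE 5 to 2.19 in EAE 4, with a median of 1.33. The PBS libraries ranged from 1.20 in PBS 6 to 1.97 in PBS 3, with a median of 1.46. The groups were nearly level, with a log2FC of −0.13 (SE 0.15, 95% interval −0.45 to 0.19, adjusted p = 0.718 in edgeR). The exact permutation p was 0.644. Stab1 encodes stabilin-1, a scavenger receptor of macrophages and sinusoidal endothelium (chromosome 14, 31139013 to 31168641, minus strand, overlapping Nt5dc2 on the other strand). It ranged from 3.45 FPKM in EAE 7 to 7.43 in EAE 4 with a median of 5.64, and from 3.56 in PBS 2 to 6.67 in PBS 4 with a median of 4.22. EAE 1 to EAE 5 were above 5 FPKM, as were PBS 4 and PBS 6, and the rest were below. The log2FC of Stab1 was 0.16 (SE 0.15, 95% interval −0.14 to 0.47, adjusted p = 0.615 in edgeR), and the exact permutation p was 0.259.

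The receptors for hyaluronan, folate and sugars were sparser. Lyve1, the hyaluronan receptor shared with lymphatic endothelium (chromosome 7, 110850607 to 110863239, minus strand), had 13–44 counts per library. Its FPKM ranged from 0.228 in EAE 5 to 0.650 in EAE 4 with a median of 0.360, and from 0.179 in PBS 6 to 0.400 in PBS 4 with a median of 0.292. The log2FC was 0.35 (SE 0.27, 95% interval −0.22 to 0.91, adjusted p = 0.551 in edgeR), and the exact permutation p was 0.142. Prox1 and Flt4, which mark lymphatic endothelium, were above 0 in every library, at 4.68–6.51 FPKM for Prox1, which neurons also express, and at 0.406–1.26 FPKM for Flt4. The part of other cells in the Lyve1 level was not tested.

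Folr2, folate receptor beta (chromosome 7, 101839988 to 101857194, minus strand, with Gm10602 and Gm45319 on the other strand), ranged from 0.417 FPKM in EAE 4 to 1.07 in EAE 6 with a median of 0.822. In PBS-treated mice it ranged from 0.351 in PBS 5 to 0.843 in PBS 4 with a median of 0.635. Folr2 lay above the PBS median in 7 of 8 EAE libraries, the exception being EAE 4, in which Mrc1, Cd163, Lyve1, Cbr2, Stab1 and F13a1 were at their highest. The log2FC was 0.35 (SE 0.23, 95% interval −0.12 to 0.82, adjusted p = 0.455 in edgeR), and its exact permutation p of 0.0601 was the lowest of the 10. Clec10a, a galactose-binding C-type lectin (chromosome 11, 70156197 to 70170834, plus strand), had 3–27 counts per library and has a close paralog, Mgl2, so that reads shared by both are uncertain. It ranged from 0.0760 FPKM in EAE 6 to 0.689 in EAE 2 with a median of 0.278, and from 0.0735 in PBS 3 to 0.556 in PBS 4 with a median of 0.184. The log2FC was 0.55 (SE 0.48, 95% interval −0.44 to 1.53, adjusted p = 0.596 in edgeR), and the exact permutation p was 0.265.

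Ms4a7, a membrane protein of the MS4A family that separates border macrophages from microglia (chromosome 19, 11321039 to 11336146, minus strand), was the rarest member, with 125 counts over the 16 libraries. It ranged from 0.0578 FPKM in EAE 5 to 0.536 in EAE 2 with a median of 0.147, and from 0.0189 in PBS 8 to 0.428 in PBS 5 with a median of 0.0740. The estimate was the highest of the 10 and the least precise, with a log2FC of 0.79 (SE 0.58, 95% interval −0.42 to 2.01, adjusted p = 0.520 in edgeR) and an exact permutation p of 0.217. Without PBS 5 the log2FC was 1.49, and without EAE 2 it was 0.45. At this depth a change of Ms4a7 up to 4.01-fold was within the interval.

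Among the secreted and enzymatic products, F13a1 encodes the A chain of coagulation factor XIII, which macrophages and platelets hold (chromosome 13, 36867178 to 37050244, minus strand, with 2 antisense genes). F13a1 ranged from 1.06 FPKM in EAE 3 to 2.55 in EAE 4 with a median of 1.65, and from 0.795 in PBS 6 to 1.78 in PBS 2 with a median of 1.39. The log2FC was 0.27 (SE 0.18, 95% interval −0.09 to 0.64, adjusted p = 0.453 in edgeR), and the exact permutation p was 0.122. Cbr2, a carbonyl reductase (chromosome 11, 120729489 to 120732114, minus strand), had 1–45 counts per library. It ranged from 0.0355 FPKM in EAE 7 to 1.69 in EAE 4 with a median of 0.583, and from 0.148 in PBS 2 to 0.985 in PBS 4 with a median of 0.322. EAE mice thus held both the lowest and the highest library. The log2FC was 0.60 (SE 0.50, 95% interval −0.44 to 1.64, adjusted p = 0.576 in edgeR), the exact permutation p was 0.275, and without EAE 4 the log2FC was 0.26.

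Pf4, a chemokine of platelet granules that border macrophages also make (chromosome 5, 90772435 to 90773383, plus strand), ranged from 0.0642 FPKM in EAE 1 to 1.81 in EAE 6 with a median of 0.818. In PBS-treated mice it ranged from 0.244 in PBS 6 to 1.76 in PBS 1 with a median of 0.809. The medians were level and the spread was wide in both groups, with 1–29 counts per library. The log2FC was −0.15 (SE 0.45, 95% interval −1.09 to 0.79, adjusted p = 0.904 in edgeR), and the exact permutation p was 0.833. Ppbp, another platelet granule chemokine, ranged from 0 to 0.142 FPKM in EAE mice and from 0.0299 to 0.339 FPKM in PBS-treated mice. The summed FPKM of 11 platelet genes was 6.26–10.6 for EAE and 6.76–9.31 for PBS. Ppbp did not stand for this list, in which 8 genes had a higher and 3 a lower estimate in EAE mice. By edgeR 0 of the 11 had an adjusted p under 0.05, against 2.42% of all tested genes. The part of platelet RNA in the Pf4 level was not tested. The strand setting of the counting is not given in the sources used here, so reads of members with antisense neighbours may hold both.

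**Figure D2:**
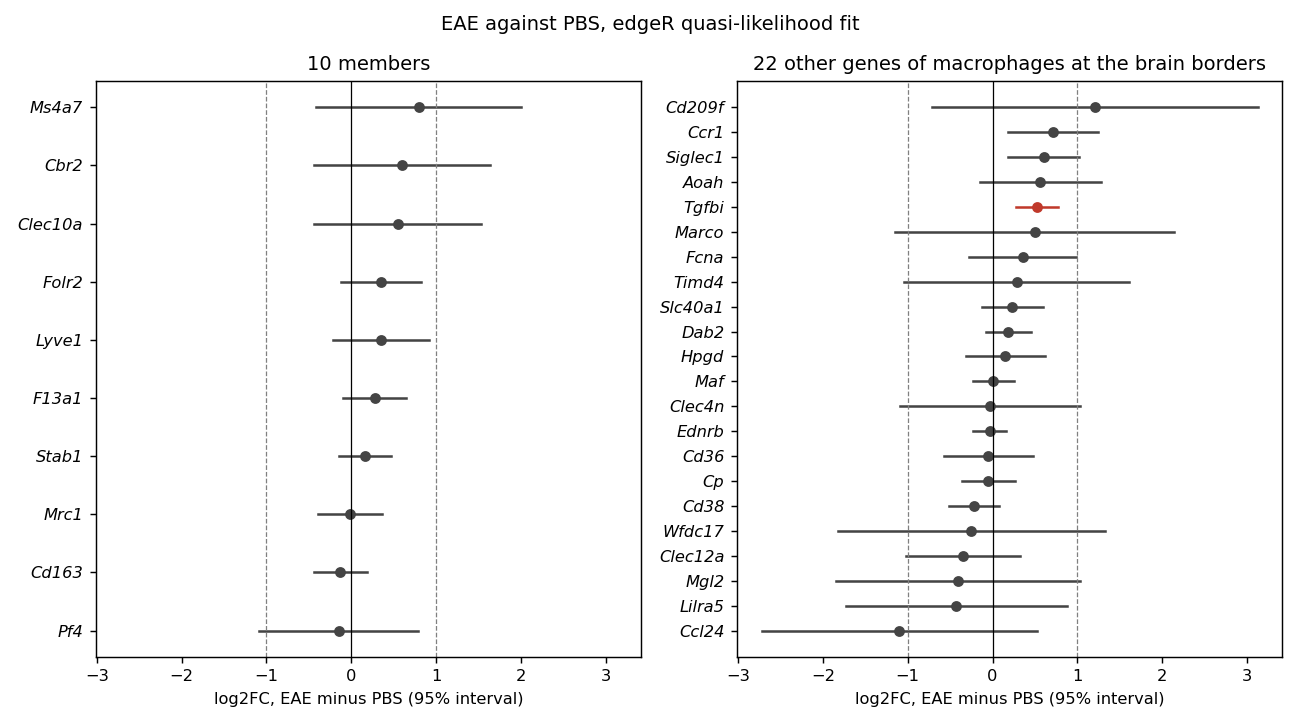
The log2FC of EAE against PBS from edgeR's quasi-likelihood fit (horizontal axis, points) with 95% intervals (lines) for the 10 members (left) and 22 further genes of macrophages at the brain borders (right), with dashed lines at a log2FC of −1 and 1. All 10 member intervals include 0, and the gene drawn in red, Tgfbi, had an adjusted p of 0.0255.

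The microglia markers differed between libraries, so the members were also set against them. Each member's log2(FPKM + 0.1) minus the mean of the 12 microglia genes in the same library was tested with limma. By this measure 0 of 10 members had an adjusted p under 0.05, as did 0.0112% of all tested genes. The differences ranged from −0.41 for Pf4 (SE 0.45, adjusted p = 0.579 in limma) to 0.29 for Ms4a7 (SE 0.29, adjusted p = 0.552 in limma). The median over all genes was −0.21 on this scale, and 11 of the 12 microglia genes had an estimate above 0 in EAE mice with 0 of 12 at an adjusted p under 0.05 in edgeR.

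Within the 6 alike libraries, Mrc1 alone of the 10 had an adjusted p under 0.05, and 24.1% of all genes tested there did. Its FPKM was 1.34–1.57 in EAE 6, EAE 7 and EAE 8 and 1.80–2.20 in PBS 5, PBS 7 and PBS 8. The log2FC there was −0.52 (SE 0.12, adjusted p = 0.00228 in edgeR). This SE and p are biased low, because the 6 libraries were picked from the data as the most alike. Within the other 10 libraries Mrc1 was 1.22–2.25 FPKM in EAE mice and 0.837–1.87 FPKM in PBS-treated mice. The log2FC there was 0.31 (SE 0.24, adjusted p = 0.727 in edgeR), and 0 of 10 members passed against 0.0745% of all genes tested. The difference between the effects of Mrc1 in these sets, −0.83 (SE 0.34), had an unadjusted p of 0.0233 and an adjusted p of 0.560 in an edgeR interaction term added after the data were seen. By that term 0 of 10 members differed between the sets, against 0.0615% of all tested genes, so the Mrc1 effect is not shown to differ between them. The estimates of Ms4a7 (−0.44 within the 6, 1.63 within the other 10) and Cbr2 (−0.91 and 0.98) had opposite signs as well, and their differences had adjusted p of 0.690 and 0.627 in the same edgeR term.

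The sets themselves differed in level for some members. Stab1 was 6.29 ± 0.870 FPKM (SD, n = 5) in EAE 1 to EAE 5 and 3.89 ± 0.414 (n = 3) in EAE 6 to EAE 8. Cbr2 was 0.957 ± 0.464 and 0.201 ± 0.146 FPKM in the same libraries. In PBS-treated mice Stab1 was 4.89 ± 1.37 FPKM in the other 5 libraries and 4.24 ± 0.259 in PBS 5, PBS 7 and PBS 8, and these overlapped. Cd163 differed little, with 1.47 ± 0.513 and 1.39 ± 0.124 FPKM in the EAE sets. These sets are not groups of the study, and no test was made of their levels. How many of all genes differ as much between the sets was not counted.

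How far the members varied together was measured over the 16 libraries by Pearson's r and Spearman's rho of log2(FPKM + 0.1) after the group means were removed. Of the 45 pairs, 30 had a positive r, the values ran from −0.52 to 0.90, and the median was 0.19. In the permutation test, 9 pairs had an unadjusted p under 0.05 and 1 pair passed the Benjamini-Hochberg adjustment over the 45 pairs. That pair was Cbr2 and Stab1, with an r of 0.90, a rho of 0.92 and an adjusted permutation p of 0.00045 for both, whose unadjusted value is the smallest that 100000 resamples can give. Without EAE 4 and EAE 7, the libraries farthest from the median of Cbr2, the r was 0.85. With the means of the sets of libraries removed as well, a step added after the data were seen, the r was 0.81 with an adjusted permutation p of 0.0702, and 0 of 45 pairs passed. The r was 0.91 within the other 10 libraries and 0.55 within the 6.

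Mrc1 varied with Lyve1 (r = 0.60, rho = 0.61, adjusted permutation p = 0.184 for r and 0.250 for rho), with Ms4a7 (r = 0.57), with F13a1 (r = 0.56) and with Cd163 (r = 0.52), and none of these relations passed. Pf4 and Stab1 had the lowest r, −0.52, which did not pass either (adjusted permutation p = 0.239). Folr2 had a negative r with Mrc1 (−0.34), Cd163 (−0.41), Lyve1 (−0.38) and F13a1 (−0.45). Over all members, 15 of the 45 pairs had an r below 0. The counts behind Ms4a7, Clec10a, Pf4 and Cbr2 were low, at 1 to 45 per library.

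**Figure D3:**
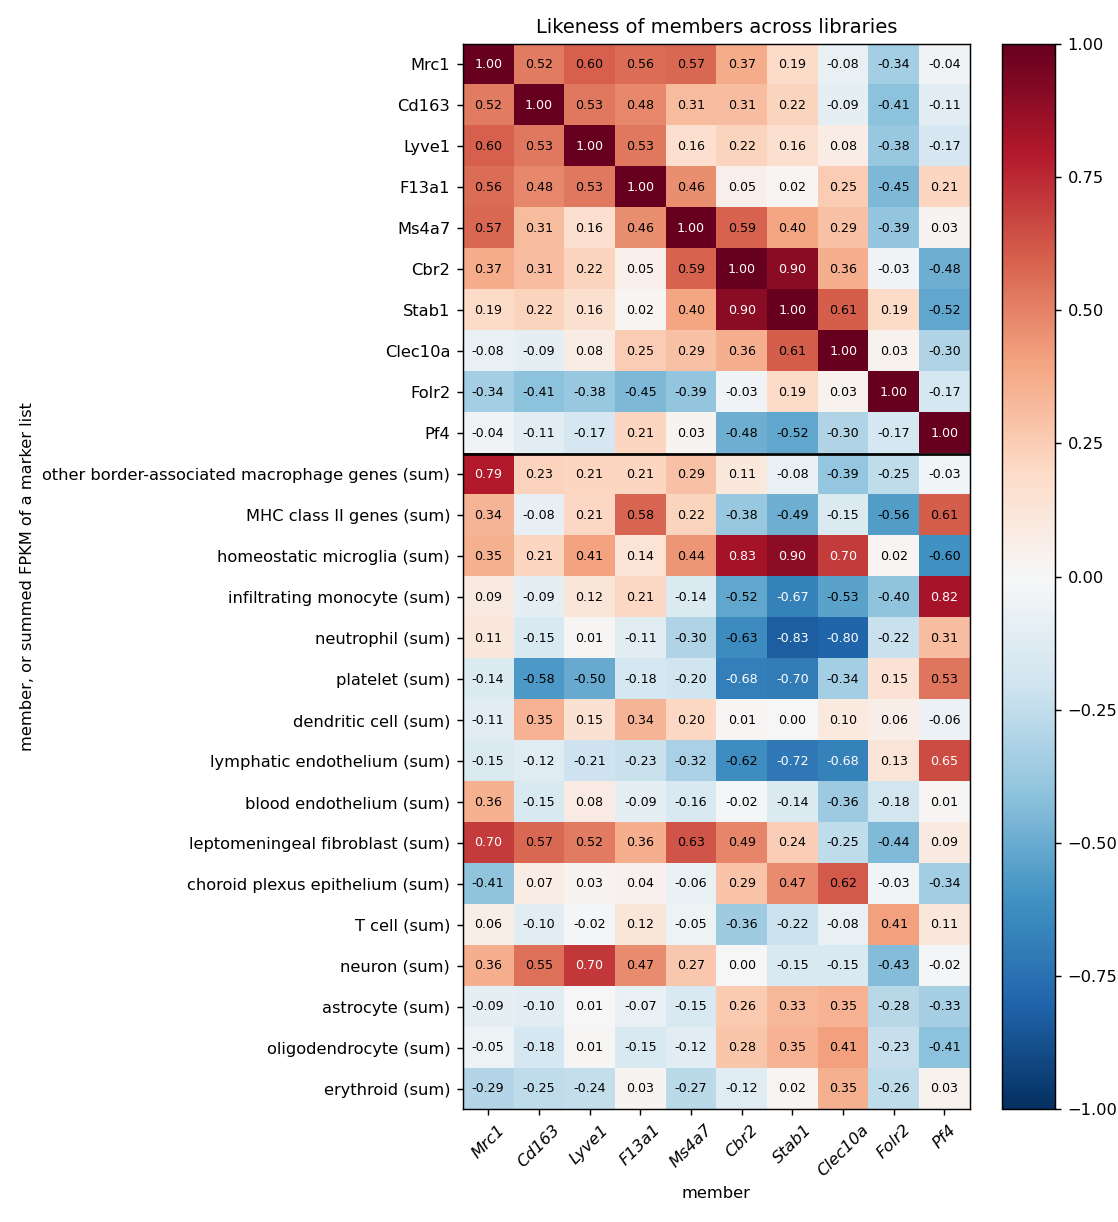
Pearson r over 16 libraries, after removal of the group means, between the members (upper block) and between each member and the summed FPKM of 16 marker lists (lower block), coloured from −1 to 1. Cbr2 and Stab1 reach 0.90 with each other, and 0.83 and 0.90 with the homeostatic microglia genes.

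The members were also set beside 16 lists of marker genes, most of them of other cells, which gave 160 relations with 7 passing the adjusted permutation test for r. Stab1 varied with the summed homeostatic microglia genes (r = 0.90, rho = 0.91, adjusted permutation p = 0.00587 for r and 0.008 for rho). Cbr2 did so too (r = 0.83, rho = 0.85, adjusted permutation p = 0.00587 for r and 0.016 for rho). Within the other 10 libraries the r was 0.84 for Stab1 and 0.81 for Cbr2, and within the 6 alike libraries it was −0.45 and 0.05. The microglia sum spanned 110–118 FPKM in the 6, against 94.8–182 FPKM across all libraries. With so narrow a range, the r within the 6 cannot show whether the relation holds there. Without the libraries farthest from the median of the member, r was 0.87 for Stab1 and 0.84 for Cbr2.

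Against the neutrophil genes the sign was negative, with an r of −0.83 for Stab1 and −0.80 for Clec10a (adjusted permutation p = 0.006 and 0.0128 for r). By rho neither passed, at adjusted permutation p = 0.0517 for Stab1 and 0.0913 for Clec10a. Within the 6 alike libraries the r was 0.12 for Stab1 and −0.23 for Clec10a, and within the other 10 it was −0.87 and −0.79. The neutrophil sum was 50.0–101 FPKM in EAE mice and 19.5–57.7 FPKM in PBS-treated mice. Its largest part was Lcn2, at a mean of 31.0 FPKM in EAE mice and 24.1 FPKM in PBS-treated mice. The sum of 9 choroid plexus epithelium genes, another border of the brain, was 78.1–133 FPKM in EAE mice and 101–240 FPKM in PBS-treated mice, and no member passed against it. Most of this sum was Ttr, at a mean of 80.0 FPKM in EAE mice and 142 FPKM in PBS-treated mice. Of the 9 genes, 3 had a higher and 6 a lower estimate in EAE mice. Pf4 varied with the infiltrating monocyte genes (r = 0.82, rho = 0.67, adjusted permutation p = 0.00587 for r and 0.0913 for rho). The largest part of the monocyte sum was Fn1, at a mean of 15.6 FPKM in EAE mice and 14.0 FPKM in PBS-treated mice. Vcan came next, at 5.29 and 5.32 FPKM, while Ccr2 was at 0.427 and 0.304 FPKM. Mrc1 varied with the leptomeningeal fibroblast genes (r = 0.70, rho = 0.66, adjusted permutation p = 0.0149 for r and 0.102 for rho) and with the other border macrophage genes (r = 0.79, rho = 0.72, adjusted permutation p = 0.0295 for r and 0.0822 for rho). Without PBS 1 and PBS 6 the last r was 0.55. Ednrb was the largest part of the sum of the other border macrophage genes, at a mean of 13.7 FPKM in EAE mice and 13.6 FPKM in PBS-treated mice. Within the 6 alike libraries the r of Mrc1 was 0.16 with the fibroblast genes and 0.12 with the other border macrophage genes, and that of Pf4 with the monocyte genes was 0.94. Within the other 10 these were 0.70, 0.73 and 0.77. The parts of microglia, neutrophil, monocyte, fibroblast and astrocyte RNA in the levels of these members and lists were not tested.

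**Figure D4:**
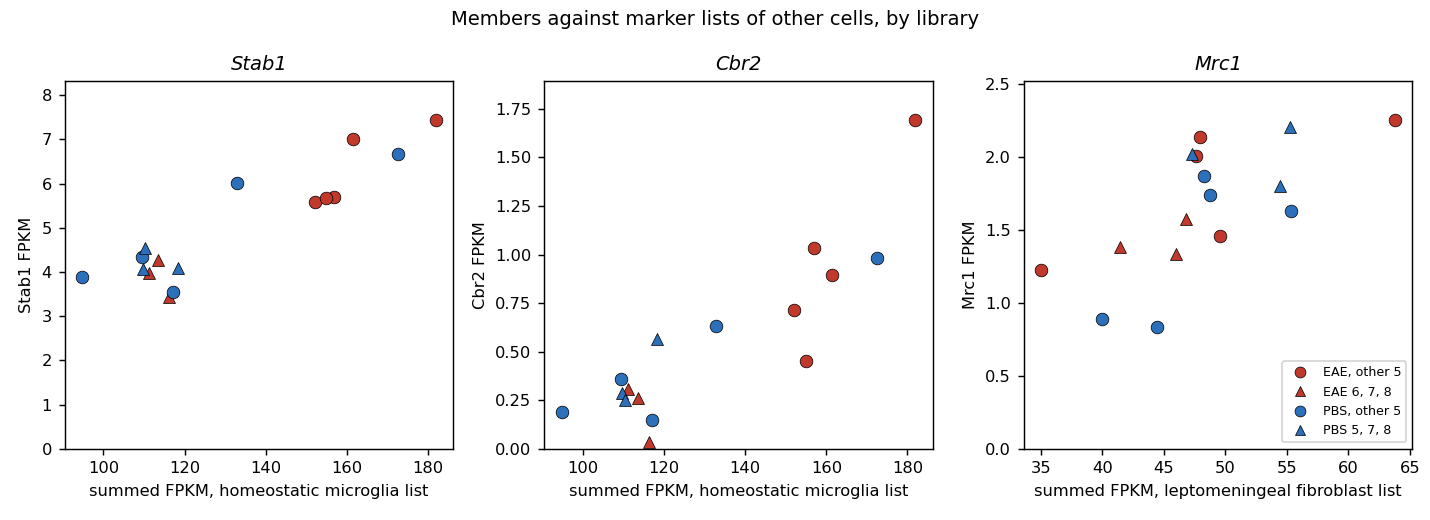
FPKM of Stab1, Cbr2 and Mrc1 (vertical axes, linear) against the summed FPKM of the homeostatic microglia or leptomeningeal fibroblast genes (horizontal axes, linear), with each point 1 library and triangles the 6 alike libraries. The 6 alike libraries lie at a microglia sum of 110–118 FPKM, close to PBS 2 and PBS 3, and EAE 4 is highest for all 3 genes.

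By the mean of the members' standardized levels, the genes most like the set among 13306 genes with a mean of at least 1 FPKM were Bin2 (r = 0.95), Col12a1 (r = 0.92), Cx3cr1, the fractalkine receptor of microglia (r = 0.90), Itgb3bp (r = 0.90), Nectin3 (r = 0.90), Dock2, Samd12 and Fyb (r = 0.89 each), over 16 libraries. The mean ran from −0.64 in PBS 6 to 1.17 in EAE 4. These values describe the libraries and carry no test.

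A further 24 genes of macrophages at the brain borders were in the table, and 22 were tested. Of these, 12 had a higher and 10 a lower estimate in EAE mice (median log2FC 0.08), and 1 of 22 passed at an adjusted p under 0.05, against 2.42% of all tested genes, while 0 were called. The gene was Tgfbi, an extracellular matrix protein made by macrophages and monocytes. Its FPKM was 4.64 ± 0.552 (SD, n = 8) in EAE mice, from 3.97 to 5.54, and 3.11 ± 0.652 in PBS-treated mice, from 2.02 to 4.06. The ranges overlapped slightly, and the log2FC was 0.52 (SE 0.12, 95% interval 0.28 to 0.77, adjusted p = 0.0255 in edgeR). The adjusted p of Tgfbi in edgeR was 0.0603 without EAE 2, 0.0511 without EAE 8 and 0.0517 without PBS 2. It was 0.126 within the other 10 libraries, 0.00876 within the 6 alike libraries, and 0.391 relative to the microglia genes in limma. The value within the 6 alike libraries is biased low, since they were picked as the most alike. The infiltrating monocyte genes, a list chosen to mark blood-derived myeloid cells, summed to 24.1–31.5 FPKM in EAE mice and 19.4–26.9 FPKM in PBS-treated mice. Fn1 and Vcan were the largest parts of this sum. The part of blood-derived myeloid cells in the Tgfbi difference was not tested.

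Siglec1, the sialic acid receptor of border and lymph node macrophages, was 0.327 ± 0.0929 FPKM (SD, n = 8) in EAE mice and 0.208 ± 0.0596 FPKM in PBS-treated mice (log2FC 0.60, SE 0.20, adjusted p = 0.116 in edgeR). Ccr1, a chemokine receptor of myeloid cells, was 0.702 ± 0.134 and 0.412 ± 0.187 FPKM (log2FC 0.71, SE 0.26, adjusted p = 0.144 in edgeR). Neither passed. The next in order of p, Aoah (log2FC 0.56), Cd38 (−0.22) and Dab2 (0.18), had adjusted p of 0.424, 0.457 and 0.491 in edgeR. Cd209b and Vsig4 were too low to test, with at most 2 and 4 counts in any library.

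The sequence upstream of 8 of the 10 members was taken from RefSeq (GRCm38.p6), in 11 promoters of 250 bases that end at the annotated start. GAGGAA, the core bound by PU.1 and other ETS factors of macrophages, was searched for on both strands (TTCCTC on the reverse). It was found in 5 of 11 member promoters, those of Mrc1, Pf4, Cbr2, Stab1 and 1 of F13a1, and in 23.3% of all 32851 promoters. TGCTGA, a core bound by MAF factors (TCAGCA on the reverse), was in 3 of 11 and in 16.1% of all. Those of Stab1 and Mrc1 are shown with GAGGAA or TTCCTC in capitals, the first as the member with the highest level and the second as the member with the most matches.
Stab1, chr14:31168642-31168891, minus strand: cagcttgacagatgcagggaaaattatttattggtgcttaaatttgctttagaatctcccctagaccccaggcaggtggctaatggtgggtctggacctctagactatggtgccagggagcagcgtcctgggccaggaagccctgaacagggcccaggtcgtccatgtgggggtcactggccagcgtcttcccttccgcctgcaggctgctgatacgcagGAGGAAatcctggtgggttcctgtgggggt
Mrc1, chr2:14229164-14229413, plus strand: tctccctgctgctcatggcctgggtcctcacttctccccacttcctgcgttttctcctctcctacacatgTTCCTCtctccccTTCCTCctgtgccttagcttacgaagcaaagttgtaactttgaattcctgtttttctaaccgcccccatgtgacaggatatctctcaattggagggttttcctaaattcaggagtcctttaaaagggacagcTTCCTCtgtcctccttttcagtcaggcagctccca
The Mrc1 window holds 3 matches and that of Stab1 holds 1. A match describes these letters and is neither a bound site nor a cause of any level above.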

How the data were processed

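Brain cells described as microglia (CD11b+/CD45int) of 8 EAE and 8 PBS-treated mice were profiled by stranded total RNA-seq. The authors aligned filtered reads to GRCm38 with HISAT2 2.1.0 and counted them with HTSeq 0.11.2, per the labels and methods, and the annotation and strand setting are not given in the sources used here. The deposited raw counts per gene and the FPKM that the authors derived from them were used. Genes with at least 16 counts in total were tested with edgeR 4.0.16 (quasi-likelihood test, TMM, condition as the only term, Benjamini-Hochberg over 17885 genes), after a test on simulated counts. Single members were compared by two-sided exact permutation of FPKM (NumPy 2.4.6), and limma 3.58.1 was used on log2(FPKM + 0.1). SciPy 1.17.1 gave the ranks for rho. DESeq2 1.42.0, other filters and scalings, and leaving out each library were alternatives. The methods name both DESeq2 and edgeR. Intervals from counts at this depth cover counting and library spread.

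The members and all gene lists were chosen with earlier results of these data known. Named beyond the members were the 6 other border macrophage genes with the smallest p, single markers beside a result they touch, and the 8 genes most like the member mean. For the relations to marker lists, only r was planned, and their permutation p-values were added later. Gene positions are those of GENCODE M21 (GRCm38).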

Additional observations from a re-analysis of the deposited data

Results flagged for a closer look

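Of 20 tests for a library far from the rest of its group, not adjusted for their number, 1 was positive. Ms4a7 in PBS 5 was 0.428 FPKM, from 24 counts, and its gap to the next PBS library was 0.650 of the range of the PBS libraries, above the critical value of 0.526. Without PBS 5 the log2FC of Ms4a7 was 1.49 in place of 0.79, and its adjusted p in edgeR stayed above 0.05.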

How the results depend on the processing

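Under the planned normalizations, filters and tests over all libraries, and in the 16 fits that left out 1 library, 0 of 10 members were called. Within the 6 alike libraries, 1 member (Mrc1) had an adjusted p under 0.05, the median member log2FC was −0.044 against 0.31 in all libraries, and 4 of the other border macrophage genes passed, where 24.1% of all genes did. Within the other 10 libraries, 0 of these genes passed, and leaving out single libraries gave 0 to 1 (0 without EAE 2, EAE 8 or PBS 2). The estimate of Mrc1, close to 0, changed sign to 0.038 with library totals, 0.075 in limma, 0.017 with the replicate block and 0.31 in the other 10 libraries, and was −0.12 to 0.053 when single libraries were left out. Within the 6 libraries the estimates of Pf4 (0.15), Ms4a7 (−0.44), Cbr2 (−0.91) and Stab1 (−0.15) also had the opposite sign, and that of Pf4 was −0.42 to 0.057 when single libraries were left out. The cause was not tested. The pairs of members that passed fell from 1 to 0 when the means of the library sets were removed. The filterByExpr filter dropped Ms4a7 and Clec10a, and DESeq2 gave no adjusted p for Ms4a7. The labels do not say whether replicate numbers pair the samples. The deviations of same-numbered libraries correlated at −0.12 to 0.38, and 3 of 8 correlated best with their own number. The highest value, 0.38, was that of EAE 4 and PBS 4. Their squared difference, 5.38 times counting noise, was the lowest of all EAE and PBS pairs. The replicate block gave 0 member calls and 15 higher and 1 lower calls over all genes, against 17 and 4. Counts of 1 to 45 per library limit the precision of Pf4, Ms4a7, Cbr2 and Clec10a.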
